A study of Aspergillus nidulans with 8 samples.

Results

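Ageing of Aspergillus nidulans colonies on the solid medium called CYA was followed over 3 arrays, 1 each for days 4, 8 and 10. All genes of the deposited value table were taken, and 11109 of 11127 had a signal well above background on at least 1 CYA array. The series holds 8 arrays of total RNA labelled with Cy3: CYA and CYAs on days 4, 8 and 10, and YES on days 4 and 10. The labels name no strain, genotype, additive or replicate culture and do not spell out the media. All cultures were inoculated at 3 points, grown at 32 °C in darkness and harvested as whole colonies, so each array averages over the young edge and the old centre of the colonies.

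A colony of this fungus extends at its margin while the centre ages. Older mycelium can form conidia, the asexual spores carried on conidiophores, or closed sexual fruiting bodies surrounded by thick-walled Hülle cells. It can also make secondary metabolites, whose genes often lie side by side in clusters, and release hydrolases that digest its own walls and proteins as nutrients run out. In whole-colony RNA, fewer cells of a type and less RNA per cell cannot be told apart.

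Levels are log2 signals relative to the 75th percentile of the array, so 0 is that percentile and levels of different genes are not compared. With 1 array per day there is no test over CYA samples, and a gene is said to have risen or fallen when it moved by at least 4-fold (2 on the log2 scale). The SD given with a difference is over the probes of the gene (usually 3) and covers technical spread alone. Genes for which the reference table gives no symbol are called by locus tag.

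The arrays lay on 2 slides. CYA days 4 and 8 shared slide 1 with both YES arrays, and CYA day 10 lay on slide 2 with the 3 CYAs arrays. The step from day 4 to 8 was therefore measured within a slide, whereas for the change to day 10 slide and day cannot be told apart. The median SD over probes was 0.110 for day 8 minus day 4, against 0.224 for day 10 minus day 8. The 75th percentile of signal was 3026, 3145 and 1841 on days 4, 8 and 10, with 10975 to 11106 genes above background. One array stood apart in another way. Over the 95 genes that rose at least 64-fold on CYA from day 4 to 8, the CYAs day 8 array held a median 0.214 of the CYA day 8 signal, with quartiles of 0.193 and 0.228. The same share was 0.969 on YES day 10 (quartiles 0.829 and 1.06) and 0.0390 on CYA day 10 (0.0262 and 0.0899). CYAs is therefore compared below mainly through its days 4 and 10, where the share was 0.00514 and 0.0137.

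From day 4 to day 8, 858 genes rose (7.72% of those tested) and 816 fell (7.35%). From day 8 to day 10, 299 rose (2.69%) and 683 fell (6.15%). Between the ends of the course, day 10 against day 4, 454 genes were higher (4.09%) and 568 lower (5.11%). All probes of a gene moved the same way in 98.4% of the genes past the threshold in the first step and in 98.4% in the second. The correlation across genes, which are not independent replicates, was 0.825 between days 4 and 8, 0.897 between days 8 and 10 and 0.893 between days 4 and 10. Day 8 and day 4 were thus the pair least alike. Centring each array on its median gave 413 higher and 596 lower for day 10 against day 8, and 578 higher and 505 lower for day 10 against day 4. For the latter, background correction with quantile normalization gave 166 higher and 335 lower, and the authors' deposited table gave 206 and 407. The median of all genes on day 10 against day 8 was 0.18, 0.35 with median centring and 0.09 with quantile normalization.

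No test of day rests on replicate cultures, since each medium and day has 1 array. The only test available takes all media together, with the media in the place of replicates. Its day 8 term rests on the CYA day 8 array and on CYAs day 8, the array set apart above. The part of that array's near-constant share in the result was not tested. Limma with medium and day as additive terms over the 8 arrays called 1 gene (0.009%) for day 8 against day 4, and 0 (0%) for day 10 against day 4, where 2473 genes had an unadjusted p under 0.05 and quantile-normalized values gave 2 calls. The called gene, AN11979, stood at -4.51, 1.24 and -3.13 on CYA days 4, 8 and 10. It was high on day 8 alone. Its day 8 effect over the media had a limma adjusted p of 0.034. A fit with slide as a random block made 1 call, and a fit with slide as a fixed block made no call. Only CYA day 10 lay on another slide than the rest of its medium, so the fixed-block fit is the same as leaving out CYA day 10. The number of such calls was 73 without YES day 4 or without YES day 10, which are the same fit, and 0 when any other array was left out.

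The second step was described for the genes of the first. A gene was counted as reverted when at least 50% of its first log2 step was undone by day 10, as continued when it moved on by at least 50% in the same direction, and as kept otherwise. Both steps share the day 8 array, so an error in that array alone would make genes look reverted. Of the 858 risers 600 (69.9%) reverted, 244 (28.4%) were kept and 14 (1.63%) continued. Of the 816 fallers 247 (30.3%) reverted, 550 (67.4%) were kept and 19 (2.33%) continued. A kept gene did not always hold its day 8 level. The second step had a median of -0.62 in kept risers and 0.67 in kept fallers. In AN10931, a kept riser, it was -5.21. The median return was 69.7% of the first step for risers and 32.6% for fallers. At this cut-off most risers and a minority of fallers reverted, but both statements turn with the cut-off. With a return of 75% required, 356 risers (41.5%) and 95 fallers (11.6%) reverted, and with 25%, 711 (82.9%) and 489 (59.9%). Risers reverted more often than fallers at each of the 3 cut-offs. A return on the log2 scale is not a return to the start: 384 of the 600 reverted risers (64%) and 157 of the 247 reverted fallers (63.6%) ended within 2-fold of their day 4 level.

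**Figure D1:**
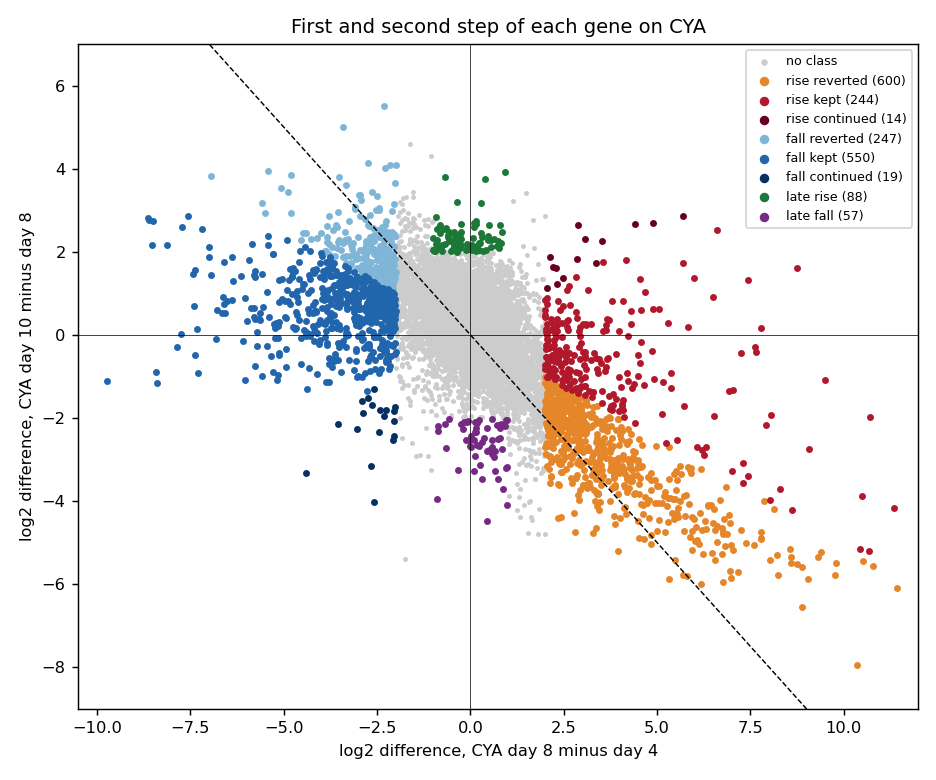
Log2 difference of day 8 minus day 4 (horizontal) against day 10 minus day 8 (vertical) for each gene on CYA, 1 point per gene, coloured by class; the dashed line marks a full return to the day 4 level. The 600 reverted risers lie along that line at the lower right, while most of the 816 fallers lie above 0 but below it.

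The classes also differed in where they started. The reverted risers had a median level of -3.88 on day 4, -0.13 on day 8 and -3.26 on day 10. The kept risers began lower, at -6.16, and stood at -1.94 and -2.73. Their lower quartile on day 4 was -7.58, near the lowest probe level well above background on that array (-8.02). On at least 1 day 19 of the 244 kept risers, and 7 of the 600 reverted ones, were not well above background. With background correction and quantile normalization there were 96 kept risers. Kept fallers had medians of -0.72, -4.47 and -3.84, and reverted fallers -0.63, -3.41 and -1.36. A further 88 genes moved by less than 2-fold to day 8 and then rose (median levels -2.96, -3.42 and -0.96), and 57 fell late (-0.75, -0.41 and -3.12). These late movers lie across the slides in the one step in which they moved.

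**Figure D2:**
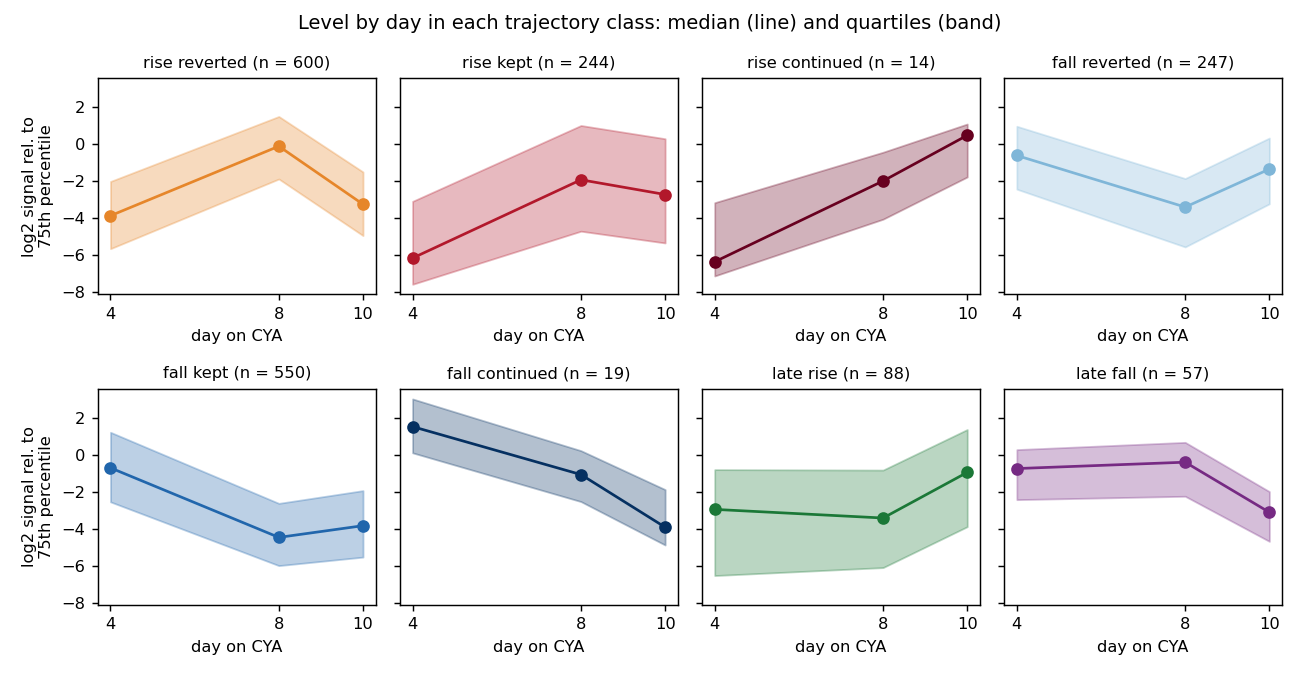
Level (log2 signal relative to the 75th percentile of the array) on CYA days 4, 8 and 10 in 8 classes of genes; points are medians and bands run from the lower to the upper quartile over genes. Reverted risers peak on day 8, and kept fallers have a median near -4 on day 10.

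The largest rises reached up to 11.43 on the log2 scale. AN7235 stood at -8.12, 3.31 and -2.77 on days 4, 8 and 10, a rise of 11.43 (SD 2.35 over probes) followed by a fall of 6.09. Its day 4 level lay below the lowest probe level well above background on that array (-8.02), so the size of its rise is uncertain. AN2330 stood at -5.52, 5.84 and 1.68, and AN2400 at -7.69, 3.10 and -2.45. These genes were faint on day 4, bright on day 8 and in between on day 10. nscA (AN6000), AN10931, AN7613, AN11856 and AN7957 complete the 8 largest rises, between 10.43 and 10.71. Even the reverted ones stayed above the start on day 10, AN7613 by 5.08 (-6.24, 4.28 and -1.16 by day). With quantile normalization that excess was 3.16 for AN7613, 2.26 for AN7235 and 2.34 for AN2400. All 8 were also higher on YES on day 10 than on day 4, by 9.23 to 10.41, and on CYAs by 1.01 to 2.26. AN6020, at -6.89, 3.45 and -4.48, had the largest fall of the second step (-7.94, SD 0.71). AN12133 (-5.25, 3.64 and -2.91) and AN10930 (-3.58, 2.61 and -3.39) also peaked on day 8, and AN10930 ended 0.18 above its start.

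Most of the largest falls lay in gene runs of metabolite clusters. AN11584 stood at 3.45 on day 4, -6.28 on day 8 and -7.40 on day 10, a first step of -9.73 (SD 0.57). It lies within the run of genes of the dba cluster, named for a derivative of benzaldehyde. AN11017 (4.18, -4.44 and -1.63), AN11013 (4.48, -4.12 and -1.36), AN7816, AN7806 and AN7824 lie in the sterigmatocystin run. Each stood above the 75th percentile on day 4 and below it on both later days. AN11612 (4.32, -4.09 and -5.00) and AN7893 (3.41, -4.99 and -6.15) are the others of the 8 largest falls. AN11612 was 0.98 higher on CYAs day 10 than on CYAs day 4, and 3.82 lower on YES.

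Most measured genes of secondary metabolite clusters fell from day 4 to day 8. Of 123 measured genes in 15 cluster lists, 72 fell (58.5%, against 7.35% of all genes) and 4 rose (3.25%, against 7.72%), with a median of -2.69 against -0.01 for all genes. The median fell by at least 2-fold in 11 lists and rose by as much in 1. On day 10, 59 of the 123 (48%, against 5.11% of all genes) were still lower than on day 4 by at least 4-fold, and 22 (17.9%, against 2.69%) had risen from day 8. The quinolone run, a further cluster described below, is not among these lists. With it 14 of 134 genes (10.4%) rose to day 8 and 72 (53.7%) fell. These lists follow cluster membership by locus tag and were chosen with earlier results of these arrays known.

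Sterigmatocystin, a toxic polyketide and precursor of aflatoxin in other aspergilli, had the lowest list median. All 21 measured genes fell to day 8, with first steps from -8.54 to -2.63 and a list median of -6.36. Their median levels by day were 2.57, -4.47 and -2.96. The second step was upward in all 21 genes (median 1.47) and passed 4-fold in 7. On day 10 all 21 still stood below day 4, 20 of them by at least 4-fold. AN7806 stood at 4.59, -3.91 and -1.17, and AN7825 at 4.51, -1.85 and -0.56. AN7822 moved least, from 4.79 to 2.15 and 3.41. On YES the list was lower on day 10 by a median of 4.66, but on CYAs it was 0.43 higher. The fall was thus seen on CYA and YES and not on CYAs, a difference that was not tested.

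Other clusters that fell differed in what came next. In the aspercryptin run, whose product is a lipopeptide, 11 of 12 genes fell to day 8 (median -3.76) and 7 rose again by day 10 (median 2.52). AN7881 stood at -1.25, -6.69 and -2.75, and AN7883 at -2.16, -5.68 and -1.88. Their day 10 levels were near those of day 4 in AN7883 and still 1.50 lower in AN7881. In the dba cluster 7 of 8 genes fell (median -4.04), and the second step had a median of -0.09. AN7902 stood at 2.75, -5.11 and -5.39, and AN7897 at 1.55, -6.22 and -6.20. These genes went down on day 8 and remained there. Counts of falls elsewhere were 5 of 6 for aspernidine, 3 of 3 for microperfuranone, 4 of 7 for cichorine, 4 of 5 for orsellinic acid, 3 of 8 for pimaradiene and 6 of 18 for austinol. Of all genes 7.35% fell in this step. For cichorine the YES median on day 10 against day 4 was -0.33 and that of CYAs 0.01, against -2.30 on CYA. In the monodictyphenone list 7 of 14 fell and 1 rose: AN10039 stood at -2.06, 2.09 and -1.57, opposite to its neighbours in the list. No gene of the asperfuranone list (8) or the emericellamide list (4) moved by 4-fold in the first step. In the second, AN2549 of emericellamide fell by 2.76.

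Asperthecin and the quinolone run moved the other way. The 3 asperthecin genes, which serve an anthraquinone pigment known from sexual fruiting bodies, all rose to day 8. nscA stood at -5.20, 5.51 and 3.53, nscB (AN6001) at -2.04, 4.48 and 2.52, and nscC (AN6002) at -3.40, 2.14 and -0.38. All were highest on day 8 and higher on day 10 than on day 4, by 8.72, 4.56 and 3.02. On YES they were higher on day 10 by 10.16, 5.84 and 3.77, and on CYAs they differed by 1.01, 0.82 and -0.01. The run AN9223 to AN9235, whose list was chosen after its values were seen, holds genes of quinolone alkaloids. Of its 11 measured genes 10 rose to day 8 (median 4.90), and all 11 were higher on day 10 than on day 4, by a median of 7.23. With background correction and quantile normalization these medians were 2.33 and 3.41, a move beyond the spread within the list. The median level on day 4 was -7.28, near the lowest probe level well above background on that array (-8.02). AN9225 stood at -8.26, -2.56 and 0.29 (SD 2.47 for the first step), and AN9223 at -7.28, -2.38 and 0.31. These had the largest first steps of the class that continued to rise, whereas AN9234 (-6.66, 0.97 and 0.67) stayed near its day 8 level. AN9232 was not well above background on day 4 and was at least 135-fold higher on day 8. The probes of AN9233 and AN9235 disagreed on the size of the first step, 3.31 (SD 3.73) and 3.23 (SD 3.32).

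Penicillin and terrequinone genes rose late. The 3 genes of penicillin, the beta-lactam antibiotic, moved by 0.15 to 0.79 from day 4 to 8 and rose by 2.32 to 2.67 from day 8 to 10. AN2622 stood at -1.58, -1.43 and 1.24, and AN2623 at -1.88, -1.26 and 1.06. Both were level until day 8 and highest on day 10. On CYAs the 3 genes were higher on day 10 than on day 4 by a median of 2.43, while on YES the median was -1.64. The 3 terrequinone genes, for a bisindole quinone, rose by 2.05 to 3.34 in the second step after first steps of -0.94 to -2.50. Their net change to day 10 was 0.84 to 1.24.

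**Figure D3:**
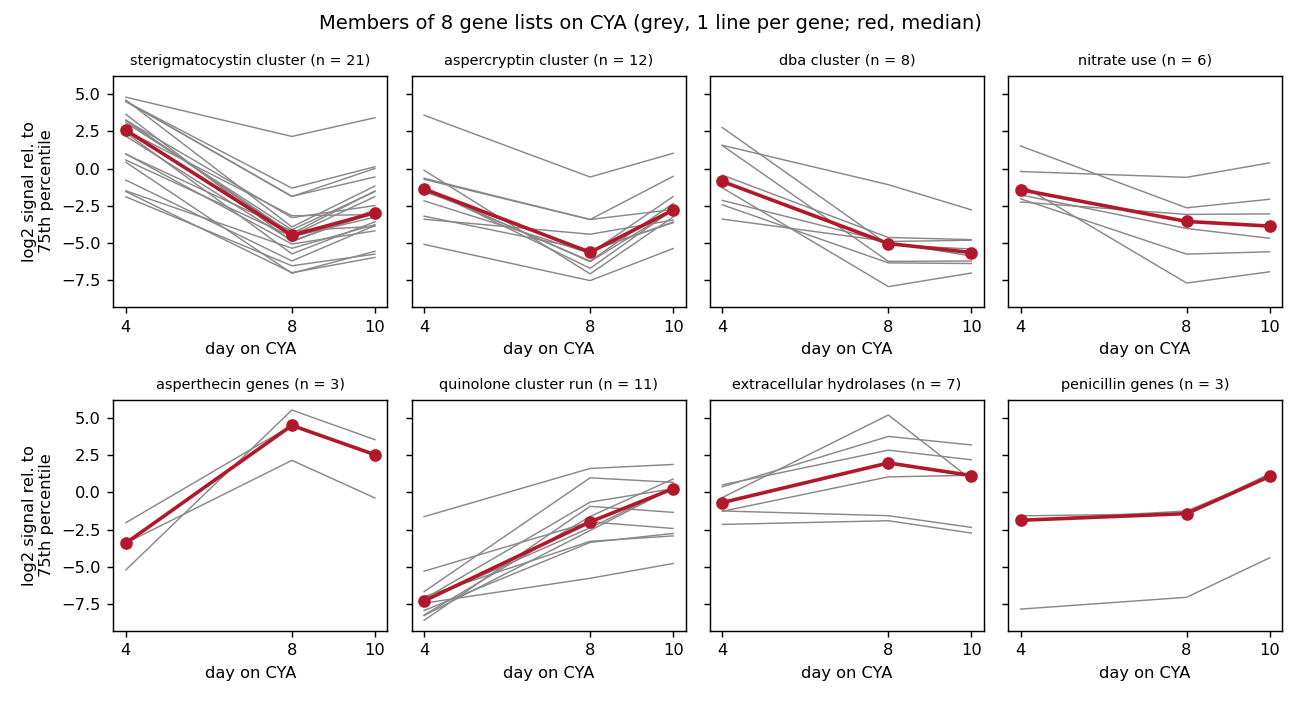
Level (log2 signal relative to the 75th percentile) on CYA days 4, 8 and 10 of each measured gene (grey) in 8 lists, with the list median in red. All 21 sterigmatocystin genes drop on day 8, the aspercryptin genes come part of the way back, the 3 asperthecin genes peak on day 8, and the 3 penicillin genes rise on day 10.

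Some of the called genes lay next to each other. Among 782 fallers placed on the reference map, 367 (46.9%) had another faller as a direct neighbour on either side. Of placed genes 7.51% were fallers, but a share that counts both sides would exceed this even without clustering. For risers of the first step it was 245 of 803 (30.5%), with 7.72% of placed genes risers. There were 16 runs of at least 4 neighbouring fallers, with 104 genes, and 7 runs of risers, with 32. The longest, AN7804 to AN7825 on chromosome IV, held 24 genes of the sterigmatocystin region, and the next, AN7873 to AN11028 on chromosome II, 10 genes of the aspercryptin region. A 6-gene run on chromosome VI, AN3257 to AN3252, belonged to no list here. Its median first step was -5.54, and its second 1.39. A run of 6 on chromosome VII, AN8983 to AN8978, overlaps the ethanol list. A run of risers on chromosome IV, AN7346 to AN7343, had a first step of 4.68 and a second of 0.59. On chromosome VII AN1784 to AN1787 rose together in the second step, by a median of 2.72.

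Genes for coat proteins of the conidium fell. Hydrophobins are small proteins that make spores and aerial hyphae water-repellent. rodA (AN8803), which encodes the rodlet protein of the conidium, stood at 2.00, -3.17 and -4.25 on days 4, 8 and 10. dewA (AN8006), another conidial wall hydrophobin, stood at 1.47, -2.92 and -6.24 and was the gene of largest first step among those that continued to fall. Both were highest on day 4 and lowest on day 10. Of the 6 hydrophobins 4 fell to day 8 and all 6 stood lower on day 10 than on day 4, 5 of them by at least 4-fold. On YES the list median for day 10 against day 4 was -6.01, and on CYAs it was -0.14. None of 12 conidiation regulators moved by 4-fold in any step, a count too small to set against the 7.72% and 7.35% of all genes that rose and fell in the first. brlA (AN0973), the central activator of conidiophore formation, stood at -2.76, -3.68 and -4.09, and stuA (AN5836) at 3.40, 2.55 and 4.01. The list of 7 conidium and conidiophore genes had a median of -0.20 in the first step, with rodA and dewA as its 2 fallers. pksP (AN8209), the spore pigment polyketide synthase gene, stood at 1.35, -0.56 and -0.26, and yA (AN6635), the conidial laccase gene, at -3.65, -2.69 and -3.61. The spore catalase gene catA (AN8637) was highest on day 10, at 1.78, 2.28 and 3.70.

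Genes of the sexual cycle that rose to day 8 did not all stay up. AN7349, listed as a Hülle cell marker, stood at -1.25, 6.52 and 6.69, a rise of 7.77 (SD 0.34) that was kept. It was higher on day 10 than on day 4 by 7.94 on CYAs and by 5.93 on YES as well. The other gene of that list, AN7388, stood at 2.68, 1.58 and 2.48. The mating-type genes MAT1 (AN2755) and MAT2 (AN4734), both transcription factor genes, stood at -6.00, -2.48 and -4.12 and at -5.56, -2.83 and -5.13. preA (AN7743), a pheromone receptor gene, stood at -2.98, -0.85 and -2.74. These 3 of 13 sexual development genes rose to day 8, where 7.72% of all genes rose, and all were lower on day 10 than on day 8. The pheromone gene ppgA (AN5791) moved by 1.83 in the first step and fell by 2.85 in the second. The other 9 genes, among them nsdD (AN3152) at 1.47, 0.15 and 1.63, did not pass 4-fold in any step. Of the velvet family, which couples development to secondary metabolism, veA (AN1052) stood at 0.11, -1.85 and 0.51 and velB (AN0363) at -2.35, -1.04 and -1.70. laeA (AN0807), the methyltransferase gene tied to metabolite clusters, stood at -1.57, -1.59 and -0.73. Only the second step of veA passed 4-fold among them. AN1967 of the oxylipin oxygenase list fell by 3.63, from 1.89 to -1.74, and stood at 0.15 on day 10.

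Extracellular hydrolases rose to day 8 in 5 of 7 listed genes (median 2.33), where 7.72% of all genes rose. AN5558 stood at -0.35, 5.18 and 0.86, and AN4871 at 0.37, 3.74 and 3.17. AN5558 lost most of its rise by day 10 and AN4871 little. mep20 (AN7962), a metalloprotease gene, stood at -1.27, 1.03 and 1.14. The dipeptidyl peptidase genes dppIV (AN6438) and dppV (AN2572) moved by 0.25 and -0.32 in the first step. Among 11 chitin and glucan synthase genes, chsD (AN1046), a chitin synthase gene, rose from -3.50 to 3.02 and stood at -1.17 on day 10. The alpha-glucan synthase genes ags1 (AN3307) and ags2 (AN5885) fell by 2.71 and 2.93 and stayed low. In the run AN2951 to AN2955 of galactosaminogalactan, an adhesive polysaccharide of the hyphal surface, 4 of 5 genes fell, where 7.35% of all genes fell. agd3 (AN2954), for its deacetylase, stood at 0.30, -3.26 and -3.10.

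Nitrate assimilation genes fell and stayed low. niaD (AN1006), the nitrate reductase gene, stood at -1.07, -7.67 and -6.92, and niiA (AN1007), the nitrite reductase gene, at -2.03, -5.73 and -5.58. crnA (AN1008), a nitrate transporter gene, stood at -1.76, -4.01 and -4.67. All 3 were highest on day 4, and with AN0399 they were the 4 fallers of 6, where 7.35% of all genes fell. The regulator genes nirA (AN0098) and areA (AN8667) moved by -0.39 and -0.83. On CYAs the list had a median of -3.41 for day 10 against day 4, as against -3.23 on CYA and 0.45 on YES. Of the proline genes, prnD (AN1731), for proline oxidase, stood at -1.83, 1.43 and -1.94, a rise that was undone. In the ethanol list 3 of 6 fell, against 7.35% of all genes, and AN8979 stood at 3.25, -2.51 and -3.26. Of 9 glycolysis genes 1 passed 4-fold in the first step: AN8689 stood at -0.49, 1.62 and -0.60. That count is too small to set against the 7.72% of all genes that rose. acuF (AN1918), the phosphoenolpyruvate carboxykinase gene of gluconeogenesis, stood at 1.07, 1.82 and 3.30 and was higher on day 10 than on day 4 by 2.23.

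Genes of 7 housekeeping lists stayed within 4-fold. None of 87 genes in 7 lists (ribosome assembly, proteasome, translation initiation, peroxisome assembly, mitochondrial protein import, septins and splicing) passed 4-fold in any of the 3 comparisons, while 7.72% of all genes rose and 7.35% fell in the first step. Their list medians in the first step ran from -0.60 for the proteasome to 0.43 for the septins. The count of 0 depends on which lists are grouped, since other lists of basic functions held calls. Of 17 sterol synthesis genes 1 rose and 1 fell in the first step, and 1 was lower on day 10 than on day 4. Of 12 chaperone genes 1 fell in the second step. Of 12 histone, tubulin and cell cycle genes, plkA (AN1560), for the mitotic polo-like kinase, rose to day 8 and fell after it, at -0.85, 1.32 and -1.34. nimE (AN3648), the mitotic cyclin B gene, stood at -1.01, 0.76 and -2.28, and its second step of -3.03 passed 4-fold. nimX (AN4182), for the kinase that pairs with it, stood at -0.27, 0.80 and -0.82. All 3 were highest on day 8 and lowest on day 10. The histone gene hhtA (AN0733) stood at 4.24, 4.47 and 4.04.

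**Figure D4:**
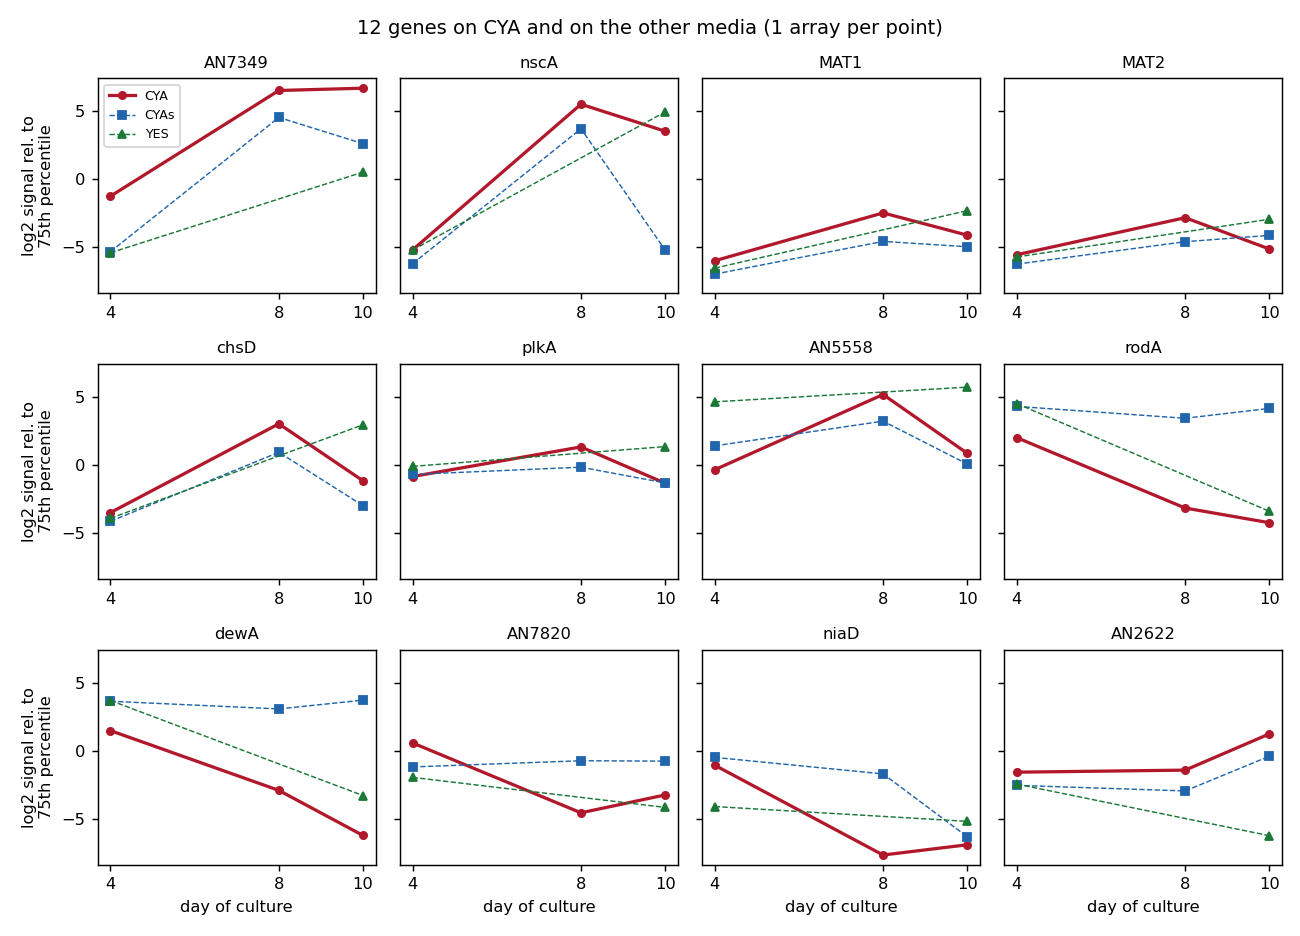
Level (log2 signal relative to the 75th percentile) of 12 genes by day of culture on CYA (red circles), CYAs (blue squares) and YES (green triangles), 1 array per point. rodA and dewA fall on CYA and YES but stay above the 75th percentile on CYAs, AN7349 rises on all media, and the penicillin gene AN2622 rises on CYA and CYAs between days 8 and 10.

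Genes that continued or moved late mostly had no symbol in the reference, as held for all genes, of which 779 of 11109 had one. Beside the quinolone genes, AN1785 (-6.02, -1.62 and 1.05) and AN6298 (-3.94, -0.42 and 1.84) rose in both steps. AN10180 (-6.93, -3.57 and -1.85) had a second step of 1.72, under 4-fold. Beside dewA, AN8308 (3.01, -0.53 and -2.66) and AN0528 (0.36, -2.67 and -4.94) fell in both. Each of these genes changed in 1 direction over the course. The largest rise of the second step was that of AN6869, at -2.00, -4.32 and 1.17, which ended above its day 4 level, followed by AN9305 at -1.79, -5.21 and -0.21. AN5463 stood at -1.81, -3.81 and 0.28 on CYA, and on CYAs it was 8.26 higher on day 10 than on day 4. Late rises were led by AN11199 (-6.82, -5.88 and -1.96), AN7200 (-2.72, -3.41 and 0.39) and AN0500 (-4.37, -3.98 and -0.23). Late falls were led by AN5056 (3.82, 4.26 and -0.22, SD 1.96 for the second step), AN8366 (0.55, 1.53 and -2.57) and AN0362 (0.04, 0.91 and -2.82).

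The same genes were read in the other cultures through day 10 minus day 4, which shares no array with the CYA differences. On YES, 400 of the 600 reverted risers (66.7%) and 159 of the 244 kept ones (65.2%) were at least 4-fold higher on day 10, against 7.15% of all genes. On CYAs it was 78 (13%) and 99 (40.6%), against 9.83%. Risers thus had high YES shares whether or not they reverted on CYA, and those that reverted had a CYAs share not far from that of all genes. The YES day 10 array lay on slide 1 with CYA day 8, and CYA and CYAs day 10 both lay on slide 2. The part of the slide in this pattern was not tested. Of the kept fallers, 303 (55.1%) were also lower on YES, against 6.95% of all genes, and 99 (18%) on CYAs, against 1.92%. Of the reverted fallers 58 (23.5%) were lower on YES. Among late risers 34 of 88 (38.6%) were higher on CYAs and 2 (2.27%) on YES, and among late fallers 21 of 57 (36.8%) and 12 (21.1%) were lower. From day 4 to 8 on CYAs, 226 of the reverted risers (37.7%) and 97 of the kept ones (39.8%) were at least 4-fold higher, against 3.77% of all genes, on the array that held a near-constant share of the CYA day 8 signal.

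**Figure D5:**
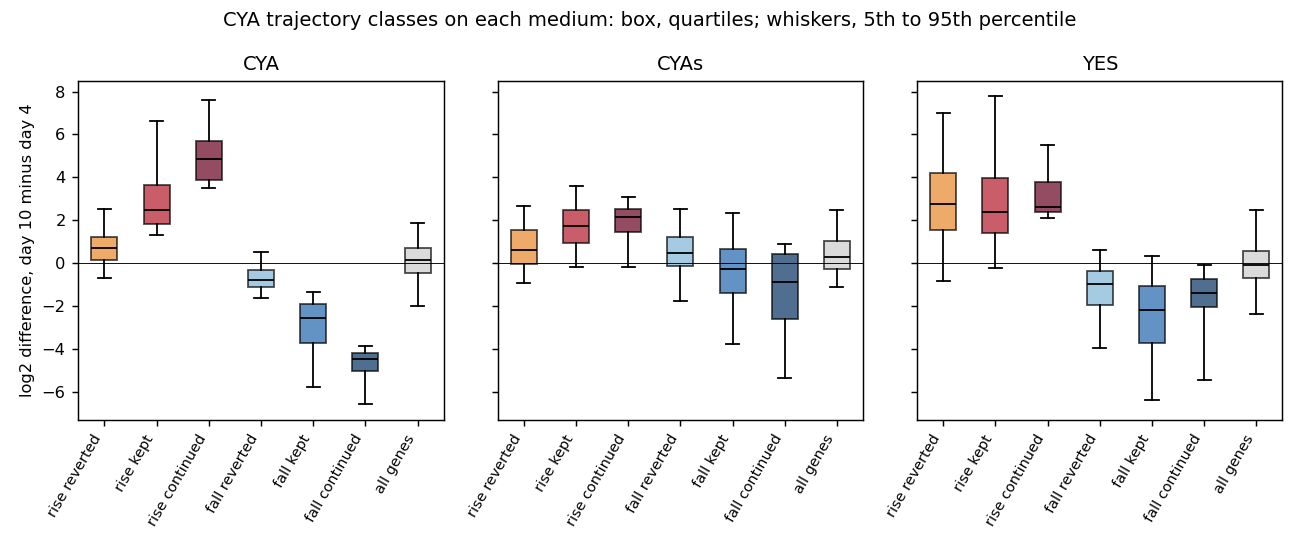
Log2 difference of day 10 minus day 4 on CYA, CYAs and YES for the genes of 6 CYA classes and for all 11109 genes; boxes show the median and quartiles over genes and whiskers the 5th and 95th percentiles. The 600 reverted risers have a median of 0.68 on CYA and 0.61 on CYAs, but 2.76 on YES.

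Changes past 4-fold between days 4 and 10 were also counted on pairs of media. Higher on both CYA and CYAs were 225 genes, 49.6% of those higher on CYA and 20.6% of those higher on CYAs. Lower on both were 132, 23.2% and 62% of the lower genes. Of all genes 4.09% were higher and 5.11% lower on CYA, and 9.83% were higher and 1.92% lower on CYAs. Of the genes lower on CYA, 37 (6.51%) were higher on CYAs, where 9.83% of all genes were higher. Of those higher on CYA, 1 (0.22%) was lower on CYAs, against 1.92% of all genes. Higher on both CYA and YES were 201 genes (44.3% and 25.3%), and lower on both were 295 (51.9% and 38.2%). Of the genes lower on CYA, 9 (1.58%) were higher on YES, against 7.15% of all genes, and 10 of those higher on CYA (2.20%) were lower on YES, against 6.95%. These counts compare single arrays.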

How the data were processed

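Total RNA of colonies from 3 media was hybridised to 8 Agilent 1-colour arrays, 1 per medium and day, so each group holds 1 array. The deposited intensity columns used are the processed signal of each spot and, for an alternative, its median signal and that of the local background. Per the file headers, they come from Agilent Feature Extraction 10.5.1.1. The authors' deposited table, used as an alternative, holds log2 values, 1 per gene, with column medians between 9.66 and 9.69. Limma and RMA are named, without versions, in the submitters' processing notes, and how the table was corrected, normalized or centred is not given in the sources used. All its columns shared a maximum of 19.22. They correlated across genes at 0.980 to 0.983 with the quantile-normalized values used here, so these alternatives are not independent of each other.

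Each array had 34210 features and 32793 gene probes. Levels are the log2 processed signal less the 75th percentile of the array, averaged over the probes of a gene (3 for 10705 genes, 2 for 256, 1 for 166), without control and outlier spots. No spot was saturated. The 18 genes without a probe well above background on any CYA array were left out. Arrays limit the precision by their number. Limma 3.58.1 in R 4.3.3 fitted medium and day over all 8 arrays, with Benjamini-Hochberg adjustment at 0.05, and was tested on simulated data. No label says that cultures were replicated, so its p-values measure the spread between these arrays.

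Members and the 44 gene lists were chosen with earlier results of these data known, and 3 more lists (sphingoid bases, tyrosine degradation, quinolone run) after their values were seen. Lists follow locus tags or symbols from general knowledge, since the reference (RefSeq, assembly ASM1142v1, 10413 genes matched, 779 tested genes with a symbol) holds no descriptions. It gave names and the order of neighbours only. The locus tag first noted for nimE belongs to another gene there, and AN3648 was used. Genes named were the 8 largest moves each way in each step and the 5 largest first steps (for late movers, second steps) per class, among genes above background in the higher array with at least 2 probes moving alike, and members of the described lists. Other members were named after their values were seen. Alternatives were normexp (offset 50) with quantile normalization, the authors' table, median centring, other thresholds, filters and probe summaries, and, for the test, slide and left-out arrays. No sequence was printed.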

Additional observations from a re-analysis of the deposited data

Results flagged for a closer look

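AN1553 went opposite ways on single arrays of 2 media. Day 10 minus day 4 was 3.47 on CYA and -2.30 on YES, and 1.06 on CYAs. On CYA it stood at -0.30, 0.00 and 3.17 on days 4, 8 and 10. With 1 array per medium and day the difference between the media was not tested.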

How the results depend on the processing

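No named gene past 4-fold and no list median past 2-fold changed direction under quantile normalization, the authors' deposited table or median centring. Of the list medians 409 moved by less than the spread within the list and 14 by more, and of the named gene values 245 and 268 by less and more than the SD over probes. Normexp with quantile normalization gave 535 rises and 486 falls from day 4 to 8, 146 and 434 from day 8 to 10, and 166 and 335 from day 4 to 10. The authors' deposited table gave 206 rises from day 4 to 10. A 2-fold threshold gave 2053 and 1931, 1963 and 1676, and 1857 and 1397 in that order, and an 8-fold threshold 449 and 386, 42 and 319, and 141 and 262. The classes depend on the share that counts as a return. At 75% there were 356 reverted and 488 kept risers and 95 reverted fallers, and at 25% 133 kept risers, 489 reverted and 308 kept fallers. Quantile normalization gave 96 kept risers, 125 reverted, 352 kept and 9 continued fallers, 45 late rises and 32 late falls, and the authors' deposited table gave 118 kept risers, 11 continued fallers and 54 late rises. Median centring of the classes, chosen after seeing the data, stayed within 1.5 times of each count. Limma's calls for day 8 over all media, 1 in the fit as reported, were 0 with slide as a block, 0 in the authors' table, 0 without the 3 CYA arrays, and 0 to 73 with 1 array left out. For day 10 the count was 2 with quantile normalization and 0 as reported. The causes were not tested. The fit over all media compares days within medium. The arrays are also grouped by slide, which the fit as reported leaves out.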

Other observations

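Some further gene groups, chosen after their values were seen, moved with the day 8 peak or the day 10 rise. The 3 genes of sphingoid base synthesis, the first steps toward ceramides, had a median of 1.50 from day 4 to 8 and -2.01 from day 8 to 10. lcbA (AN3728) stood at -1.60, 0.70 and -1.11, and lcb2 (AN1102) at -1.04, 0.46 and -1.77. The 4 tyrosine degradation genes had a median of -0.27 in the first step and 1.66 in the second, and 2 of them rose in the second: maiA (AN1895) stood at -1.87, -2.66 and -0.60 and hmgX (AN1898) at -2.89, -3.49 and -1.14. hmgA (AN1897), for homogentisate dioxygenase, stood at -0.56, -0.37 and 0.90.

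On chromosome VI the neighbours AN3410 to AN3407 had a median first step of 4.64 and second of -4.38, so their net change to day 10 had a median of 0.00. By chromosome, the share of risers from day 4 to 8 ran from 6.33% to 8.73% and that of fallers from 3.54% on chromosome III to 11.0% on chromosome V. Among iron genes, the siderophore transporter genes mirB (AN8540) and sit1 (AN5378) moved in opposite directions from day 4 to 8 and were both lower on day 10 than on day 8, at -2.21, -4.76 and -5.59 and at -4.58, -2.09 and -5.10 on days 4, 8 and 10. pmeA (AN3390), for a pectin methylesterase, was the only one of 15 listed plant polysaccharide genes past 4-fold in the first step, at -1.04, -6.38 and -6.88. In that step 7.35% of all genes fell and 7.72% rose.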
